A study of Mus musculus with 4 samples.

Results

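Cortical projection neurons carry transcription factors that mark the layer they lie in, and 9 of these genes, of 32285 in the count tables, are described here: Cux1, Cux2, Rorb, Fezf2, Bcl11b, Foxp2, Tle4, Tbr1 and Tshz2. They were picked by name and read as raw UMIs (single captured RNA molecules) in nuclei with at least 1 Slc17a7 UMI and no Gad1 or Gad2 UMI. Slc17a7 encodes the glutamate transporter of cortical excitatory neurons, and Gad1 and Gad2 encode the GABA-making enzymes of inhibitory neurons. This gate held 14291 of the 30515 nuclei kept by filters on detected genes and mitochondrial UMIs. The comparison between ages asked which layer identities were kept and which were fewer at 6 months.

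The 4 libraries were single-nucleus RNA-seq of cerebral cortex from Gclc-KO mice, 1 mouse each, 2 aged 3 months (named 3M-1 and 3M-2 here) and 2 aged 6 months (named 6M-1 and 6M-2). In these animals floxed Gclc, a subunit of the enzyme that makes the glutathione precursor, is removed in neurons by a Cre recombinase under the CaMKII promoter, and mice of both ages carry this deletion. The dissected tissue was cortex rich in rod-shaped microglia, not whole cortex. No wild-type library was analysed here, so a change with age in the knockout cannot be told apart from a change with age in any mouse.

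As background, cortical excitatory neurons are laid down in layers that differ in their targets: upper-layer neurons connect cortical areas, layer 4 neurons receive thalamic input, layer 5 neurons send axons to brainstem and spinal cord, and layer 6 neurons project back to the thalamus. CUX1 and CUX2 are homeodomain proteins of the upper layers, and RORB is an orphan nuclear receptor of layer 4. FEZF2 and BCL11B (also called CTIP2) specify and maintain layer 5 output neurons. FOXP2, the co-repressor TLE4 and the T-box factor TBR1 mark deep, mostly layer 6, neurons, and TSHZ2 is a zinc finger protein found in near-projecting neurons of the deep layers. Several of these factors repress one another during development.

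On the mouse assembly GRCm38, the build the submitters call mm10, the upper-layer pair lies on chromosome 5, Cux1 at chr5:136248135-136567490 and Cux2 at chr5:121856366-122050102, both on the minus strand. Rorb (chr19:18930605-19111196) and Tle4 (chr19:14448150-14598051) share chromosome 19, also on the minus strand. Fezf2 lies at chr14:12342094-12348189 and Bcl11b at chr12:107910403-108003602, on the minus strand, and Foxp2 at chr6:14901349-15441977, Tbr1 at chr2:61802930-61814114 and Tshz2 at chr2:169633013-170071816 on the plus strand. Antisense or opposite-strand RNA genes overlap 3 members: Gm16599 lies within Cux1, 2 antisense genes overlap Cux2 and 3 RNA genes overlap Tshz2. Genes on the same strand also overlap Cux1 (A430110C17Rik, Mir721 and Gm38082) and Foxp2 (Gm25470). Whether counting used the strand is not given in the sources used here, and sharing of reads with any of these partners was not checked.

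The promoter windows of the members are shown for the 3 genes whose upstream sequence holds no annotated exon, one each from layer 4, layer 6 and the near-projecting neurons. Each is the 250 bases before the start in RefSeq (GRCm38.p6), read 5′ to 3′ on the gene's strand. Capitals mark CCAAT or its reverse complement ATTGG, the box that CUX proteins, also known as CCAAT displacement proteins, were named for. A second Rorb window (chr19:19001118-19001367) also held no annotated exon, had no CCAAT and is not shown. The windows shown are chr19:19111197-19111446 (minus strand) for Rorb, chr19:14598184-14598433 (minus strand) for Tle4 and chr2:169632259-169632508 (plus strand) for Tshz2.
Rorb: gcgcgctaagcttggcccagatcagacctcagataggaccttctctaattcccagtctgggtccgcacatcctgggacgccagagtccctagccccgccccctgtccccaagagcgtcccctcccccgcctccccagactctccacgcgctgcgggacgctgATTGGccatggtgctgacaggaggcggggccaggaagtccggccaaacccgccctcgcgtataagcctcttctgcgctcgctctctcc
Tle4: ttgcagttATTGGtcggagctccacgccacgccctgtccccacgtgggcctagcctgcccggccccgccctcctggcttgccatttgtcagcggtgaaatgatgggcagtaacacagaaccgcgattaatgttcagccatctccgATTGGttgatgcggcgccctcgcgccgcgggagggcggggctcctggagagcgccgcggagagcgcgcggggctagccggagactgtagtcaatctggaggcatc
Tshz2: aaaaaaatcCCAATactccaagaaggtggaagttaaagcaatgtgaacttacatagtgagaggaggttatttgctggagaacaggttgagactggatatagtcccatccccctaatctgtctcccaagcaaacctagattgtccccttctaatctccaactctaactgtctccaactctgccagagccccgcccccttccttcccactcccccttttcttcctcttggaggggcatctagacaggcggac

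RefSeq windows were found for 8 of the 9 members, 11 windows in all. CCAAT on either strand was in 3 of the 11, the 3 shown above, against 33.9% of all 32851 promoter windows of this length. The E-box CANNTG was in 5 of the 11 against 66.2% of all windows. The half-sites AGGTCA, read by nuclear receptors such as RORB, and AGGTGT, read by T-box factors such as TBR1, were in none of the 11, against 14.0% and 11.8% of all windows. A match is a description of letters in this window only, and no match says nothing of what binds there.

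The gate held 3221 and 4555 nuclei at 3 months and 3291 and 3224 at 6 months (replicate 1 before replicate 2, the order of values throughout), with median depths of 11751, 8075, 10236 and 10672 UMIs. To remove these depth differences, each nucleus with at least 5000 UMIs was thinned at random to 5000, which left out 1934 nuclei (9.22%, 21.3%, 8.45% and 12.0% of the gate). A nucleus is called positive for a gene from 1 UMI after thinning. The 95% Wilson interval of a share in 1 library was at most 1.82 percentage points to either side, which covers counting error only. Of the libraries, 3M-2 was the shallowest, and any 2 libraries shared 12 to 19 barcodes, 1 to 5 of them in the gate. Gclc itself was at 42.3, 33.4, 34.4 and 36.3 CPM (UMIs of the gene per 1e6 UMIs of the gate) in the gate, which cannot check the deletion, since reads come from the 3′ end and no wild type was at hand.

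The gate was also looked at for other cells, since 1 UMI of Slc17a7 is a lenient mark. Among nuclei with UMIs of both myelin genes Mog and Mag, 10.3%, 15.6%, 15.6% and 21.0% also held a Slc17a7 UMI. The summed CPM of 7 oligodendrocyte markers in the gate was 199, 206, 343 and 399, with all 7 genes higher in both 6-month libraries. That of 5 microglial markers was 91.6, 125, 169 and 151, with 4 of the 5 genes higher in both 6-month libraries. The 5 inhibitory markers besides Gad1 and Gad2 were at 50.7, 42.7, 71.2 and 54.6 CPM, and 3 markers of dentate granule neurons, which lie in the hippocampus, at 1.96, 2.44, 4.28 and 4.24 CPM. No marker on these lists was at 0 in the gate. The shares, levels per positive nucleus, pairs, combinations and summed UMIs of the members were compared between ages again without the nuclei that held a glial marker UMI, which removed 56.5%, 56.5%, 72.9% and 68.7% of the gate, an alternative chosen after seeing the data.

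Upper-layer Cux2 was detected less often at 6 months. It was in 36.7% and 35.9% of nuclei at 3 months and in 27.6% and 25.4% at 6 months. Both older libraries were lower, with a mean difference of -9.73 percentage points (36.3% ± 0.545 against 26.5% ± 1.55, SD, n = 2 each). Batches 1 and 2 each hold 1 library of each age, and the differences within them were -9.02 and -10.4 points. Without thinning the shares were 45.4%, 42.5%, 35.5% and 30.1%. Without glial-marker nuclei the difference was -9.90 points.

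Cux1, the other upper-layer homeodomain gene, was detected in 43.2%, 42.9%, 41.9% and 35.4% of nuclei. The ages did not overlap, but most of the difference of -4.43 points came from 6M-2, and without that library it was -1.18 points. Cux1 was the most widely detected member in every library but 6M-2, where Tle4 and Bcl11b were in more nuclei.

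Rorb, the layer 4 receptor, was detected in 21.8%, 24.8%, 28.6% and 24.5% of nuclei. The highest value was in 6M-1, and 6M-2 was within the range of both 3-month libraries, so the ages overlapped. The difference was 6.86 points in batch 1 and -0.35 in batch 2.

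Fezf2 and Bcl11b, the pair named for layer 5, were each higher at 6 months. Both were also co-detected with layer 6 Foxp2, as given below, so neither marks layer 5 alone here. Fezf2 was detected in 6.98% and 6.95% of nuclei at 3 months and in 9.36% and 10.9% at 6 months, a difference of 3.16 points. Bcl11b was detected in 31.9%, 29.3%, 35.8% and 37.5%, a difference of 6.05 points. In neither gene did the ages overlap, so both were higher at 6 months within each batch.

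Among the layer 6 genes, Tle4 stood at 33.1% and 33.3% at 3 months and at 41.3% and 42.3% at 6 months, a difference of 8.63 points. Foxp2 stood at 20.5%, 17.3%, 23.4% and 26.1%, a difference of 5.88 points. Both were higher in each 6-month library than in either 3-month library. Tbr1 was detected in 7.08%, 9.55%, 8.50% and 8.81% of nuclei, and near-projecting Tshz2 in 22.4%, 19.4%, 19.2% and 23.9%, with overlapping ages in both.

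**Figure D1:**
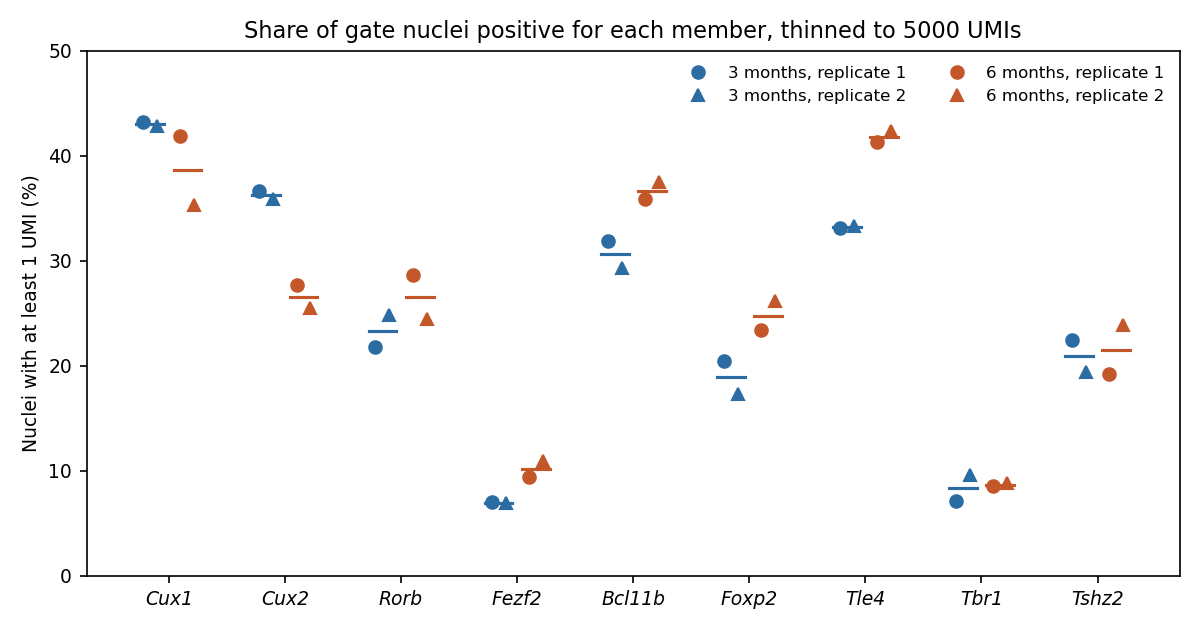
Percent of gate nuclei with at least 1 UMI of each member after thinning to 5000 UMIs (y axis) for the 9 members (x axis), with 1 point per library, circles for replicate 1, triangles for replicate 2 and lines for the mean of each age. Cux2 sits at 36.7% and 35.9% at 3 months and at 27.6% and 25.4% at 6 months, while Tle4 sits at 33.1% and 33.3% and then at 41.3% and 42.3%.

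Thus 6 of the 9 members had ages that did not overlap, 2 lower and 4 higher at 6 months. Among all 12117 genes detected in at least 2% of nuclei, 36% had ages that did not overlap, 19.2% lower and 16.8% higher. The exact two-sided permutation test gave p = 0.333 for each of the 6 members, the smallest that 2 libraries against 2 allow, so no share can pass a threshold of 0.05. A lack of overlap forces the same direction in both batches, so that sameness adds nothing. The 6 members kept their direction in every setting tried on all libraries. Among these were thinning to 2000 UMIs, a cut of 2 UMIs for positive nuclei and 2 Slc17a7 UMIs for the gate. Without glial-marker nuclei, the differences were 4.61 points for Fezf2, 7.16 for Bcl11b, 8.02 for Foxp2 and 8.97 for Tle4.

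The level of each RNA was also read in the nuclei that held it. Cux2-positive nuclei held 2.30, 2.14, 2.07 and 2.27 Cux2 UMIs on average per 5000, and the ages overlapped. Tle4-positive nuclei held 2.19, 2.37, 2.33 and 2.45. Tshz2 had the highest level per positive nucleus, with 8.87, 7.34, 6.90 and 8.40 UMIs, and Tbr1 the lowest, with 1.12, 1.08, 1.08 and 1.12. Only Bcl11b had ages that did not overlap, at 1.84, 1.75, 1.71 and 1.74 UMIs, a difference of -0.07 (exact permutation p = 0.333). This was 1 of 9 members, against 34.5% of the 12117 genes, and the Bcl11b difference turned positive in other thinning settings.

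The members were then read together in the same nucleus. A nucleus held 2.23, 2.19, 2.36 and 2.35 of the 9 on average, and 8.11%, 7.65%, 6.27% and 6.94% of nuclei held none. Co-detection was measured as the log2 odds ratio of finding a pair together, which is 0 when detection of one says nothing of the other. Of the 36 pairs, 14 were above 0 in all 4 libraries, 17 below 0 in all 4, and 5 lay on both sides.

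The highest odds ratios joined deep-layer genes with each other or the upper-layer pair, and the lowest joined Cux2 with deep-layer genes. The corticothalamic pair Foxp2 and Tle4 had the highest odds ratio, with log2 values of 3.56, 3.66, 3.21 and 3.02, and 76.8%, 79.7%, 79.6% and 77.6% of Foxp2-positive nuclei held Tle4. Cux1 and Cux2 followed, with 2.19, 2.03, 2.38 and 2.21, then Bcl11b with Foxp2, with 2.36, 2.16, 2.18 and 1.71. At the other end, upper-layer Cux2 and deep-layer Foxp2 had the lowest values, with -3.19, -3.08, -3.23 and -2.56, followed by Cux2 with Fezf2 and Cux2 with Bcl11b, at means of -2.62 and -2.55 over the 4 libraries. Nuclei holding both Cux2 and Foxp2 made up 1.61%, 1.34%, 1.23% and 1.90%, with no age above the other.

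**Figure D2:**
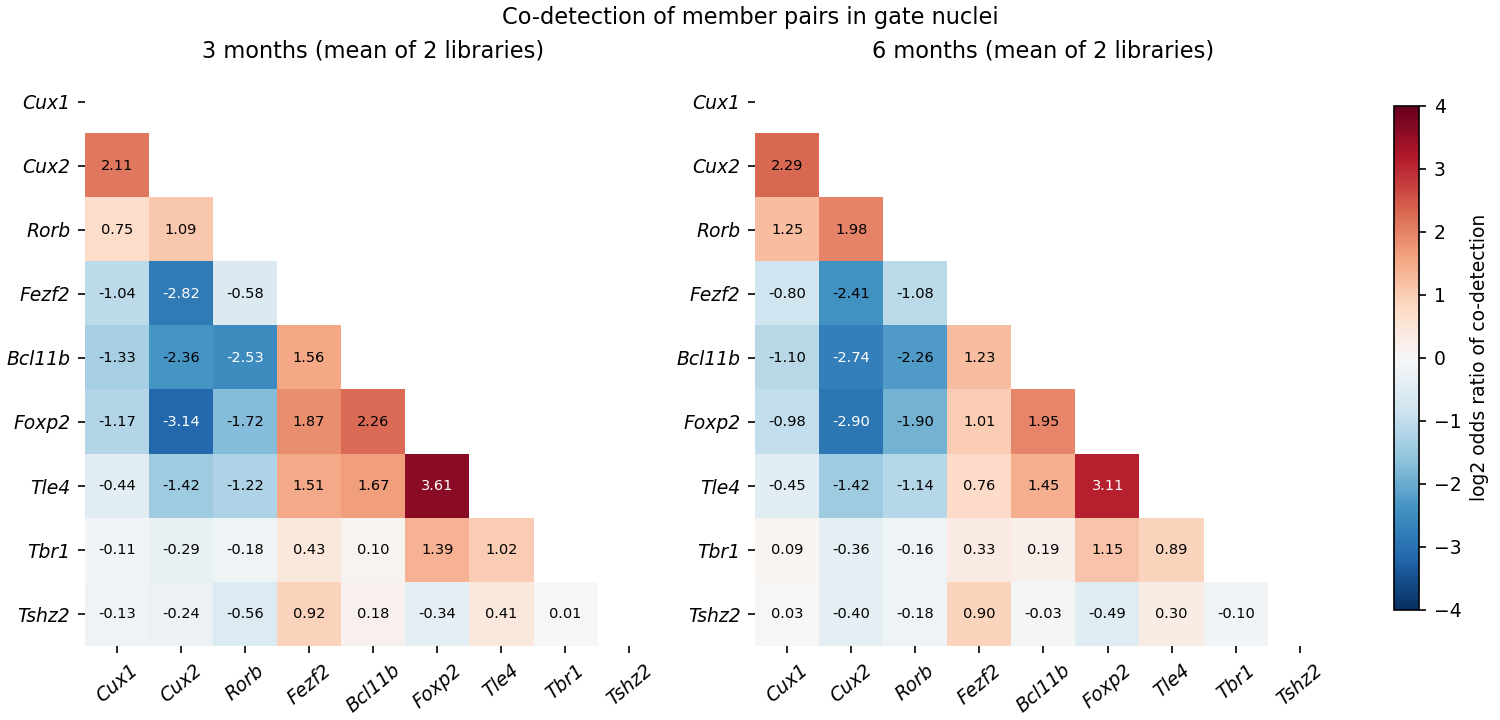
Log2 odds ratio of co-detection for the 36 pairs of members (both axes list the members) in gate nuclei, as the mean of the 2 libraries at 3 months (left) and at 6 months (right), red above 0 and blue below. Foxp2 with Tle4 is the darkest red at both ages, Cux2 with Foxp2 the darkest blue, and Cux2 with Rorb is redder at 6 months.

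With age, 17 of the 36 pairs had values that did not overlap, 10 higher and 7 lower at 6 months, against 39.5% (18.9% higher, 20.6% lower) of the 1225 pairs of 50 other transcription factors and layer genes. Cux2 with Rorb had a log2 odds ratio of 1.19 and 1.00 at 3 months and of 1.98 in both 6-month libraries, a difference of 0.89 (exact permutation p = 0.333, the smallest possible). In plain shares, 31.0% and 33.4% of Cux2-positive nuclei held Rorb at 3 months, and 50.3% and 45.3% did at 6 months. In Cux2-negative nuclei the Rorb share was 16.5%, 20.0%, 20.4% and 17.4%, and the ages overlapped. Without glial-marker nuclei the Cux2 and Rorb difference was again 0.89.

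Co-detection of Fezf2 with 2 layer 6 genes was lower at 6 months. Its log2 odds ratio with Foxp2 was 1.75, 2.00, 1.10 and 0.92, and with Tle4 it was 1.47, 1.55, 0.67 and 0.85, so both 6-month libraries were below both 3-month libraries. Foxp2 with Tle4, the strongest pair, was lower at 6 months, with a difference of -0.50 on the same scale. For Fezf2 with Bcl11b the mean difference in log2 odds ratio was also below 0, at -1.23 to -0.149 over the settings tried on all libraries. As a plain share, a different measure, Bcl11b was in 55.4%, 53.4%, 59.6% and 51.1% of Fezf2-positive nuclei, with overlapping ages.

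Combinations that stand for layer identities were then counted. Nuclei with Cux2 and none of Rorb, Fezf2, Foxp2 and Tle4, the layer 2 and 3 combination, were 19.4% and 18.4% of the gate at 3 months and 9.62% and 9.98% at 6 months. That is a difference of -9.07 points (18.9% ± 0.682 against 9.80% ± 0.248, SD, n = 2 each), and both 6-month libraries were lower. Nuclei with Cux2 and Rorb but neither Fezf2 nor Foxp2 were 10.6%, 11.2%, 13.0% and 10.4%, with overlapping ages. Both combinations are shares of the whole gate, while among Cux2-positive nuclei the share with Rorb was higher at 6 months, as given above.

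Rorb without Cux2 or Foxp2, a layer 4 or 5 combination, was in 9.13%, 11.6%, 12.9% and 10.6% of nuclei, again overlapping. Fezf2 with Bcl11b, taken as the layer 5 output combination, was in 3.86% and 3.71% at 3 months and 5.58% and 5.57% at 6 months. Both of its genes were also co-detected with Foxp2, so it is not a mark of layer 5 alone. Foxp2 with Tle4 and no Cux2, the layer 6 corticothalamic combination, was in 15.0%, 13.2%, 17.8% and 19.2%. Tbr1 with Tle4 was in 3.42%, 4.66%, 4.38% and 5.29%, with overlap. Tshz2 without Cux2, Rorb or Foxp2 was in 8.72%, 9.04%, 9.19% and 10.8%, which did not overlap but were close. For each combination named without overlap the exact permutation p was 0.333.

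**Figure D3:**
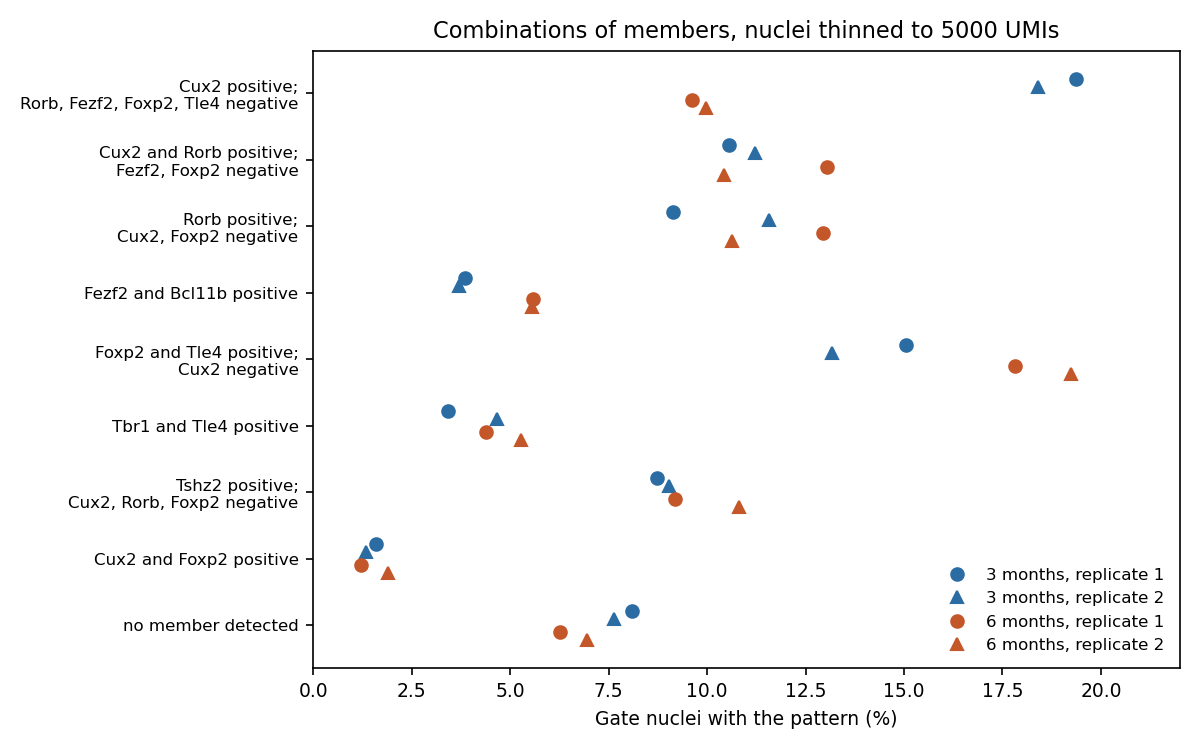
Percent of gate nuclei (x axis) with each of 9 combinations of members (y axis) after thinning to 5000 UMIs, with 1 point per library, colored by age. The combination at the top is Cux2 without Rorb, Fezf2, Foxp2 and Tle4. It lies at 19.4% and 18.4% at 3 months and at 9.62% and 9.98% at 6 months. The Foxp2 with Tle4 combination lies at 15.0% and 13.2% at 3 months and at 17.8% and 19.2% at 6 months.

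The deep-layer genes were also read within Cux2-negative nuclei, a set that still holds nuclei in which Cux2 was missed at this depth. There Tle4 was in 40.4% and 40.7% at 3 months and 46.9% and 48.5% at 6 months. Fezf2 was in 10.2%, 9.97%, 12.1% and 13.5%, Bcl11b in 43.6%, 38.8%, 45.0% and 46.7%, and Foxp2 in 29.8%, 24.9%, 30.6% and 32.5%. All 4 were higher in both 6-month libraries, with a narrow gap in Foxp2 and Bcl11b. Cux1, Rorb, Tbr1 and Tshz2 overlapped between ages in these nuclei. The share of all genes without overlap was not computed for this subset, and was 36% in the whole gate. In Cux2-positive nuclei Tle4 was also higher, at 20.4%, 20.1%, 26.5% and 24.4%. So were Fezf2, at 1.49%, 1.56%, 2.16% and 3.19%, and Foxp2, at 4.38%, 3.73%, 4.44% and 7.48%, with a narrow gap in Foxp2. Bcl11b overlapped between ages there.

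Summed over the gate and tested across 19576 genes, no member was called between the ages. The test was the quasi-likelihood test of edgeR, with p adjusted by Benjamini and Hochberg, which called 1 gene in all (0.00511%), and 1515 genes (7.74%) had an unadjusted p under 0.05. Cux2 had 163, 144, 106 and 106 CPM, a log2 fold change of -0.60 (SE 0.148), and was the only member with an unadjusted p under 0.05 (0.00342; adjusted p = 0.293). DESeq2 called 146 genes (0.746%) on the same sums and no member.

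The other members had smaller differences. Fezf2 had 16.6, 15.9, 20.5 and 23.9 CPM (log2 fold change 0.39, SE 0.186, adjusted p = 0.673 by edgeR), and Tle4 had 138, 150, 174 and 192 CPM (0.29, SE 0.137, adjusted p = 0.675). Foxp2 had a log2 fold change of 0.29, Rorb of 0.30 and Bcl11b of 0.13. Cux1 stood at -0.16 and Tshz2 at -0.11, and Tbr1 at -0.00382. The log2 fold changes depended on which libraries entered. Without 3M-2 they were -0.73 for Cux2 and 0.52 for Rorb, and without 3M-1 that of Foxp2 was 0.49. These were the members that passed in those fits. Each such fit leaves 1 library at 3 months, so only effect sizes are given and no call is drawn from them.

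**Figure D4:**
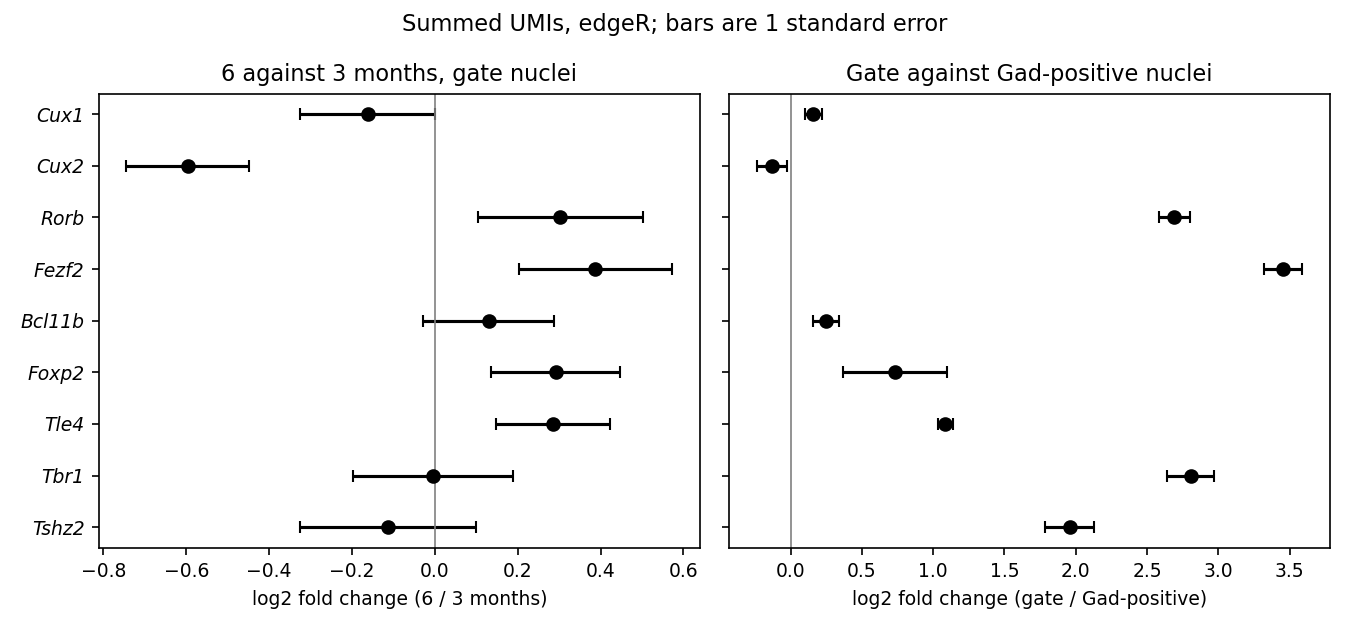
Log2 fold change of summed UMIs (x axes) for the 9 members (y axis), 6 over 3 months in gate nuclei on the left and gate over Gad-positive nuclei on the right; bars are 1 standard error from edgeR. On the left Cux2 lies at -0.60, the farthest from 0, and on the right Fezf2 lies at 3.46, with Cux2 at -0.13.

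The list of 6 other upper-layer genes was read beside Cux2. All 6 had log2 fold changes below 0: Stard8 at -1.17, Otof at -0.74, Wfs1 at -0.74, Lamp5 at -0.55, Rasgrf2 at -0.30 and Calb1 at -0.20. Their median was -0.65, beside -0.01 over all other genes tested. None was called by edgeR, and 4 had an unadjusted p under 0.05, against 7.74% of all genes tested. This list and those below were chosen with earlier results of these data known, so they are no independent check on Cux2. Stard8, the lowest, had 13.4, 20.2, 9.13 and 6.36 CPM.

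Of 6 layer 5 genes, 5 were above 0, with a median of 0.22, and 2 had an unadjusted p under 0.05. The 4 layer 4 genes had a median of 0.02, the 4 near-projecting genes 0.12, the 5 layer 6 corticothalamic genes 0.04, the 3 layer 6 intratelencephalic genes -0.16 and the 4 layer 6b genes -0.23. Among 28 other transcription factors of projection neurons, 13 were above and 15 below 0, with a median of -0.06, and 4 had an unadjusted p under 0.05. No gene on these lists was called.

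**Figure D5:**
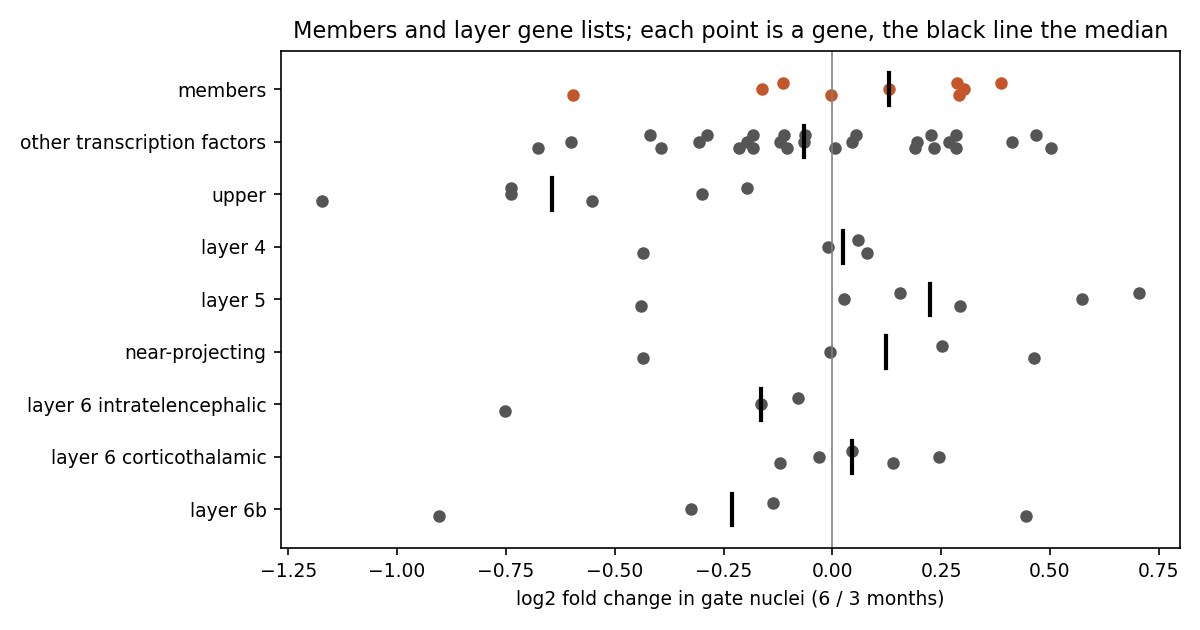
Log2 fold change of summed gate UMIs, 6 over 3 months (x axis), for the 9 members (orange), 28 other projection neuron transcription factors and 7 lists of layer genes (y axis), with 1 point per gene and black lines for medians. The 6 upper-layer genes lie between -1.17 and -0.20, all left of 0.

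Which of the 9 are particular to the excitatory gate was tested against Gad-positive nuclei (998, 1090, 1282 and 904 nuclei with Gad1 or Gad2 and no Slc17a7) of the same mice. By edgeR with mouse as a block, 6 of the 9 were higher in the gate and none lower, against 25.9% of 18510 genes higher and 27.3% lower (53.2% in all, and 58.6% at an unadjusted p under 0.05). Fezf2 had the largest log2 fold change, 3.46 (SE 0.135, adjusted p = 5.63e-08), with 19.2 against 2.01 CPM. Tbr1 (2.81), Rorb (2.69), Tshz2 (1.96) and Tle4 (1.09) followed, and Bcl11b passed at 0.25 (adjusted p = 0.0404 by edgeR). The Bcl11b call was lost with no mouse block (adjusted p = 0.0826 by edgeR) and without 3M-1, 6M-1 or 6M-2 (adjusted p = 0.123, 0.109 and 0.144). It was also lost with library totals in place of TMM scaling (log2 fold change 0.06).

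The upper-layer pair was not among them. Cux2 was at 130 ± 28.4 CPM in the gate and 160 ± 15.6 in Gad-positive nuclei (SD, n = 4), a log2 fold change of -0.13 (adjusted p = 0.316 by edgeR), and Cux1 at 0.16 (adjusted p = 0.0552). With library totals as the scale Cux2 was lower in the gate (-0.33, adjusted p = 0.0218 by edgeR) and Cux1 turned to -0.03. Foxp2 stood at 0.73 (SE 0.364, adjusted p = 0.119), where the Gad-positive nuclei of 6M-2 held 17.2 CPM against 110, 103 and 82.0 in the other libraries. Summed markers of striatal neurons, many of which carry Foxp2, were also lowest in those nuclei, at 27.5 CPM against 71.7 to 81.7, and their part in the Foxp2 value was not tested. Of the 28 other transcription factors, 24 were higher in the gate and 4 lower, with Neurod6 (3.32), Neurod2 (3.23), Lhx2 (3.04) and Bhlhe22 (2.86) among the largest. Of 29 layer genes tested, 16 were higher, Hs3st4 (3.36), Stard8 (2.95), Npr3 (2.79) and Ccn2 (2.46) among them, and 6 lower, led by Moxd1 (-3.40).

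The age difference of Cux2 was next set against that in Gad-positive nuclei. In those, Cux2 was at 178, 140, 159 and 163 CPM, with overlapping ages. Its share of them, thinned to 1000 UMIs, was 14.4%, 12.7%, 12.3% and 11.9%, lower in both 6-month libraries. The gate at that depth had 12.7%, 12.9%, 9.23% and 8.77%. The interaction, gate minus Gad-positive, was -0.57 on the log2 scale (SE 0.0982), with an unadjusted p of 1.87e-04 and an adjusted p of 0.141 by edgeR, so the difference between the classes was not called. With all 4 libraries no member was called, against 3 of 19554 genes (0.0153%). An unadjusted p under 0.05 was found for 4 of the 9 members and for 1096 genes (5.6%). Besides Cux2 these members were Foxp2 at 1.60 (adjusted p = 0.632 by edgeR), with the low Gad-positive value of 6M-2 given above, Tbr1 at -0.96 (adjusted p = 0.564) and Bcl11b at 0.33 (adjusted p = 0.875). The Gad-positive sums of Tbr1 were only 16, 14, 39 and 30 UMIs. Tle4 and Fezf2, whose gate shares were higher with age, were also higher in both older libraries in Gad-positive nuclei. Tle4 was at 79.1, 81.3, 96.7 and 93.3 CPM there, and Fezf2 at 1.02, 1.79, 2.31 and 2.93. The Fezf2 values rest on only 9, 13, 25 and 22 UMIs. Bcl11b overlapped there, and Foxp2 was lower in both older libraries. So was Cux1, at 180, 163, 152 and 148 CPM. The interaction was 0.0857 for Tle4 (adjusted p = 0.979 by edgeR) and -0.492 for Fezf2 (adjusted p = 0.942). Neither rise was shown to be particular to the gate. The same holds for the lower Cux1, with an interaction of 0.0712 (adjusted p = 0.988 by edgeR). For the interaction, DESeq2 called 11 genes. Without 6M-1 the interaction was -0.59 for Cux2, 2.98 for Foxp2 and 0.64 for Tshz2. Without 6M-2 it was 0.67 for Rorb and 0.72 for Foxp2. These were the members that passed in those fits. Each such fit leaves 1 library at 6 months, so only effect sizes are given and no call is drawn from them.

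Glial nuclei served as a floor for detection and also held some members of their own. With each nucleus thinned to 1000 UMIs, oligodendrocyte-marker nuclei, with median depths of 1910 to 3001 UMIs, held Foxp2 in 0.369% and Bcl11b in 1.08%, against 8.56% and 9.81% in the gate. Rorb was in 1.35% against 11.8%, Tshz2 in 1.89% against 13.1%, Fezf2 in 0.415% against 2.00% and Tbr1 in 0.664% against 1.80%. The floor was higher for Cux2, at 5.70% against 10.9%, for Tle4, at 6.57% against 13.6%, and for Cux1, at 9.26% against 13.9%. These are means over libraries, and the floor also differed between ages. In oligodendrocyte-marker nuclei Tle4 was in 4.37%, 6.64%, 7.33% and 7.93%. Cux2 had 91.0, 80.4, 57.3 and 57.0 CPM there, though its shares of 7.28%, 5.14%, 5.17% and 5.20% overlapped. Cux1 shares there were 10.0%, 9.85%, 8.68% and 8.48%, lower at 6 months, though its CPM overlapped. The part of such differences in the gate values was not tested. Nuclei with microglial markers held Cux1 in 34.3% (26.8% to 37.5% over libraries) and Tle4 in 16.7%, both above the gate, and Cux2 in 5.36%. By library, Cux2 was in 7.71%, 5.60%, 4.49% and 3.66% of them, lower at 6 months, while Tle4 overlapped between ages. In nuclei with oligodendrocyte precursor markers, Cux2 was in 10.3%, near its gate share, with overlapping ages. Cux1 (13.9%) and Rorb (12.8%) were also near their gate shares there. Gad-positive nuclei held Cux2 in 12.8%. Rorb was in 54.1% of nuclei with astrocyte markers (33.3% to 73.9%), of which 3M-1 had 23, and Tshz2 in 25.1% of those with oligodendrocyte precursor markers.

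Finally, the genes whose UMIs followed each member most closely over gate nuclei were named from 11322 genes, by the mean of Pearson's r over the 4 libraries. These values describe nuclei that share a library, and carry no test. Foxp2 and Tle4 had the same leading pair, the cadherin gene Cdh18 (0.60 and 0.62) and the heparan sulfate sulfotransferase Hs3st4 (0.57 and 0.56), and Foxp2 came next for Tle4 (0.51). Hs3st4 and Cdh18 also led for Tbr1, at 0.13 and 0.12. Rorb went with the potassium channel gene Kcnh5 (0.49), Tafa2 (0.45) and Prr16 (0.43).

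Cux1 went most with Gm16599 (0.50), the antisense gene inside it, then with Cux2 (0.42) and Pde7b (0.33). Cux2 went with Cux1 (0.42), Gm16599 (0.42) and Pdzrn3 (0.40). Bcl11b went with Cdh18 (0.33), the transcription factor Nfib (0.32) among others. Fezf2 went with Tox and Nrp1 among others, each at 0.16. Tshz2 went with Vwc2l (0.36), a gene of the near-projecting list, Tox (0.34) and Nxph1 (0.31).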

How the data were processed

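The deposited files were 4 count matrices of raw UMI counts per gene and nucleus, made by the authors with Cell Ranger (7.0.0 in the matrix headers) on mm10 and not normalized; Seurat is also named in the submitters' processing notes. Nuclei with more than 7000 detected genes or over 1% mitochondrial UMIs were removed, as in the study's methods, leaving 30515 of 30784, which is 1 fewer than the study's stated total. Gate nuclei were thinned without replacement to 5000 UMIs. Scrublet (scanpy 1.11.5) was run with an expected doublet rate of 0.8% per 1000 nuclei, and doublets were left out only as an alternative. UMIs summed per library (37716173 to 41831930 in the gate) were tested with edgeR 4.0.16 in R 4.3.3 (TMM, filterByExpr, quasi-likelihood, adjusted p under 0.05) and DESeq2 1.42.0. The edgeR script was tested on simulated data: in the age comparison, with 18062 genes, it recovered 87% of genes changed by a log2 fold of 1 and 99% of those changed by 2, and in the age by class interaction, with 16124 genes, 49% and 93%. False calls numbered 9 in the simulated age comparison and 6 in the interaction. The simulation gave every gene the same dispersion and no batch effect, so these percentages are not the power of the real comparisons. The odds ratio had 0.5 added to each cell.

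The labels give 1 batch number to each library, and replicates 1 and 2 of both ages carry batches 1 and 2. The differences between replicates 1 and 2 in the gate sums, taken within each age, correlated between the ages at -0.119 over genes. The batch block was an alternative in the age comparison. Genes named from other lists were those called, at most 5 per list by absolute log2 fold change; the 6 upper-layer genes are given in full and Stard8 was singled out after its values were seen. The members and lists were chosen with earlier results of these data known. Separate mice are given for each library, and coordinates come from GENCODE M21. Foxp2 had no RefSeq promoter window. Nuclei with UMIs of several glial marker lists were left out of the glial classes. Some genes that these rules would name are not reported here.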

Additional observations from a re-analysis of the deposited data

Results flagged for a closer look

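The age difference between gate and Gad-positive nuclei differed for 3 genes by edgeR's interaction test, none of them a layer factor, Zbtb20 (1.34 on the log2 scale, adjusted p = 0.00252) and Sox2ot (0.84, adjusted p = 0.0456) among them. In the gate both had more CPM in both 6-month libraries than in either 3-month library, Zbtb20 with 117, 99.1, 275.2 and 275.5 CPM, and by edgeR neither passed the age test in the gate alone (adjusted p = 0.068 for Zbtb20 and 0.284 for Sox2ot).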

How the results depend on the processing

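With all libraries kept, 5 to 7 members had shares that did not overlap under the other settings, against 6 as reported. The differences of those 6 kept their sign. With 1 library left out, 7 or 8 members did not overlap, and the signs of those 6 could not change. Paired by the batch in the labels (the replicate block), 6 of the 9 shares and 21 of the 36 pairs moved the same way in both batches. Those without overlap between ages could not do otherwise. The settings without glial-marker or dentate-marker nuclei were chosen after seeing the data. With 1 library left out, 1 library stands against 2, so values fail to overlap more easily. Counts from such settings are not comparable with the rest, and no share over all genes was computed for them. The cause of the other changes below was not tested. For UMIs per positive nucleus, 2 members did not overlap without thinning, and 3 to 8 with 1 library left out (8 without 6M-2); the Bcl11b difference was 0.0188 at 2000 UMIs and 0.106 unthinned. Of the pairs, 22 to 33 did not overlap with 1 library left out (33 without 6M-1, 28 without 6M-2). Rorb with Tle4 differed by -0.00735 with at least 2 Slc17a7 UMIs and -0.0229 unthinned, Bcl11b with Tle4 by 0.0165 unthinned, Rorb with Fezf2 by 0.37 at 2000 UMIs and 0.46 when positive from 2 UMIs, and Rorb with Bcl11b by -0.0332 without glial-marker nuclei. The Tshz2 combination differed by -0.164 points at 2000 UMIs, and Fezf2 with Bcl11b by -0.0107 points when positive from 2 UMIs.

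The edgeR age comparison called 1 gene as reported, 0 with at least 2 Slc17a7 UMIs, without glial-marker nuclei or with library totals in place of TMM, 10 with no filter on low counts, 12 with the replicate block and 146 with DESeq2. With 1 library left out, the lone library of an age being assumed to vary like the other age, 3 to 2722 genes were called (2722 without 3M-2, 715 without 3M-1, 16 without 6M-1) and 0 to 2 members. The log2 fold changes then ranged from -0.348 to 0.00131 for Cux1, -0.0347 to 0.331 for Bcl11b, -0.137 to 0.168 for Tbr1 and -0.446 to 0.159 for Tshz2. Tbr1, at -0.00382 as reported, was 0.0264 with at least 2 Slc17a7 UMIs, 0.0342 without doublets, 0.154 without glial-marker nuclei, 0.0103 without dentate-marker nuclei, 0.00173 with DESeq2, 0.0489 with library totals, 0.00646 with no filter on low counts and 0.00500 with the replicate block. In the gate against Gad-positive nuclei 9845 genes were called, and 6026 with no mouse block. The block here is the mouse, which pairs the classes of a library, not the batch. Without it the Bcl11b call was lost (adjusted p = 0.0826 by edgeR), and no other call on a member changed. Cux1 was at -0.0314 with library totals. The interaction called 3 genes, 11 with DESeq2, 0 with no replicate block, and 0 to 295 genes and 0 to 3 members with 1 library left out (295 without 6M-1, 125 without 6M-2, 0 without either 3-month library). Tshz2 had an interaction of 0.00588 with DESeq2 and 0.0705 with no mouse block. With 1 library left out it ranged from -0.569 to 0.638, Cux1 from -0.118 to 0.249 and Tle4 from -0.00515 to 0.176. With 2 mice per age no exact test can go below 0.333.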
